A study of Mus musculus with 28 samples.

Results

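H3K27me3 was followed over 54 genes that neurons use to make, move, sense and respond to transmitters, in microglia sorted from adult mouse brain. Members were found by name: every region of the deposited count table whose nearest gene is one of the 54 was taken. This gave 153 of the 26326 regions, of which 43 had their centre within 10 kb of the annotated transcription start site (TSS) and 110 lay farther out. Of the 54 genes, 39 had a region within 10 kb, 8 had regions farther out only and 7 had no row of their own. All 153 regions passed the filter on low counts. The genes are grouped here by role: 13 for transmitter synthesis and transport, 9 neuropeptides and calcium-binding proteins, 14 receptors, 12 channels and channel regulators, and 6 synapse proteins.

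All mice were male adult wild-type C57BL/6. The cuprizone groups received 0.2% of this copper chelator in the diet for 4 weeks, a treatment used to strip myelin from the brain, and their microglia were sorted by the surface proteins CD229 (Ly9) and CD11c (Itgax) into CD229+CD11c+, CD229+CD11c- and CD229-CD11c- cells. Basal microglia came from mice on regular diet and were gated as CD44Low CD45Low CD11bLow, so that diet and gate differ together between the cuprizone groups and basal microglia and cannot be told apart. Counts cover 12 H3K27me3 libraries, 3 per group, with basal replicates 3, 4 and 5; each came from the pooled brains of 2 to 6 mice, and p-values measure the spread between these pools, since the labels do not say which pools share mice. Libraries held 7740002 to 11362168 tags in the regions. The title of 8 of the 12 libraries carries the tag PE150, and replicate 3 of every group lacks it; the labels do not explain it. In a sorted bulk library, more cells that carry the mark and more mark per cell cannot be told apart.

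H3K27me3 is placed on histone H3 by Polycomb repressive complex 2, and broad domains of it over a promoter go with a gene that is kept silent. CpG-rich promoters of genes that belong to another cell type are typical sites for it in mammals. The genes described here encode proteins of neurons: enzymes and carriers that make, load and clear transmitters, peptides released with them, receptors and ion channels that answer them, and the proteins that fuse synaptic vesicles. Adgrb1 is also known as a receptor for dying cells. As a check of the cell type, none of 10 microglial identity genes had a region within 10 kb or overlapped one, while 8 of 12 neuronal marker genes outside the 54 had one within 10 kb. Markers of other cell types carried the mark as well: 5 of 6 astrocyte genes, 2 of 7 of the oligodendrocyte lineage, 3 of 4 of endothelium and 3 of 3 of lymphocytes had such a region.

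The start sites of the members were CpG-rich. RefSeq promoter windows of the GRCm38.p6 assembly, which run from 250 bases before to 50 bases after the start, were in the table used here for 41 of the 54 genes, 1 window per gene. Their median was 14 CG dinucleotides, against 7 over all 27025 promoters, and 31 of the 41 (75.6%) held at least 10, against 43.4% of all promoters. The start lay inside an H3K27me3 region for 37 of the 41 (90.2%), against 23.8% of all promoters. Where a gene had more than 1 window, one whose start lies inside a region was taken, for members and all promoters alike. These shares and the CG counts depend on that choice. The members were also chosen with earlier results of these data known, and the part of this in the gaps was not tested. Over promoters that start inside a region the median was 16 CG for the members and 8 for all 6444, and the 4 members whose start in this table lies in no region, Grin2d, Kcnj3, Scn2a and Vip, had a median of 7. For Grin2d the table's start lies within the gene, while the gene's annotated 5′ end is inside a region named for a neighbour. The start used here lies within the annotated gene for other members too, among them Cbarp, Cacna1e, Gabra5, Kcna2 and Kcnj3. For Cbarp, on the minus strand, that start is at chr10:80137387, while the annotated gene runs to 80140355. The bases and CG counts given for Cbarp are therefore from inside the gene and not from before its annotated 5′ end. CG was searched as those 2 letters, which read the same on both strands. The 200 bases before the start used here are shown for 6 genes whose region rose in CD229+CD11c- microglia and for 2 with no region. They run 5′ to 3′ on the gene's strand, with each CG in capitals. Grik3 holds the most CG of all members with a window and Kcnc2 is among those with the fewest.
Grik3: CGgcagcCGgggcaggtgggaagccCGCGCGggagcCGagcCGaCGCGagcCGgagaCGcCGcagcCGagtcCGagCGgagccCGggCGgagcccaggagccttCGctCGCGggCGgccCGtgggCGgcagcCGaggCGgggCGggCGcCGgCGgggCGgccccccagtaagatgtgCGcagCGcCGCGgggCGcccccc
Adra2a: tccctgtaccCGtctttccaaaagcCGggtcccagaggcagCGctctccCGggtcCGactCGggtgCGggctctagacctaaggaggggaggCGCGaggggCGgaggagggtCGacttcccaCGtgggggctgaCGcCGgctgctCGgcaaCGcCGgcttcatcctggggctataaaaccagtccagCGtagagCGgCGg
Npy: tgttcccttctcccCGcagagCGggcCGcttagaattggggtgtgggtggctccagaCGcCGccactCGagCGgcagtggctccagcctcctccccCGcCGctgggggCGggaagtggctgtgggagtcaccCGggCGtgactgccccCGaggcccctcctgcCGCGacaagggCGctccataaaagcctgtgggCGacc
Gad2: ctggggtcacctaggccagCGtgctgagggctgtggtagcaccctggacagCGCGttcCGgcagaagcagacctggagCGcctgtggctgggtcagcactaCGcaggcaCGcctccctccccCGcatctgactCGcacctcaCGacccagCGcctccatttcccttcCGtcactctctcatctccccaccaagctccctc
Cbarp: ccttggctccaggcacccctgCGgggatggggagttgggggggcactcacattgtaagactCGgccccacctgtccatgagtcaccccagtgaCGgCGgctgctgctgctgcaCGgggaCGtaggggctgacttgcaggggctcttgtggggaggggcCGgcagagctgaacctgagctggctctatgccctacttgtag
Kcnc2: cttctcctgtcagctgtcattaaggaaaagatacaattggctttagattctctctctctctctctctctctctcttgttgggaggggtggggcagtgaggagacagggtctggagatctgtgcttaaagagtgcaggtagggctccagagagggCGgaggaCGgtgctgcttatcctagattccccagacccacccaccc
Vip: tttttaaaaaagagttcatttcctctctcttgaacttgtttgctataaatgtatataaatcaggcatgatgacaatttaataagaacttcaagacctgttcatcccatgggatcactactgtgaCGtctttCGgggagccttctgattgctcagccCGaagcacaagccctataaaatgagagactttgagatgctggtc
Scn2a: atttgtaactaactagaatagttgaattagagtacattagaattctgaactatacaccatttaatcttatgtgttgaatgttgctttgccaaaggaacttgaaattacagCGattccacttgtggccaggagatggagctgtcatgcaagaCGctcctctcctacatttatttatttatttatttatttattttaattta
The windows shown lie at chr4:125490496-125490695 for Grik3, chr19:54045059-54045258 for Adra2a, chr6:49822510-49822709 for Npy, chr2:22622127-22622326 for Gad2, chr10:80137388-80137587 for Cbarp on the minus strand, chr10:112269817-112270016 for Kcnc2, chr10:5639018-5639217 for Vip and chr2:65620569-65620768 for Scn2a. They hold 35 CG in Grik3, 20 in Adra2a, 17 in Npy, 12 in Gad2, 7 in Cbarp, 2 in Kcnc2, 3 in Vip and 2 in Scn2a. CG content is a description of these windows: Kcnc2 carried the mark and rose with 3 CG in its whole window, and Vip had no region with 4. Among members whose own region holds the start and that have a window, the median was 20.5 CG for the 22 that rose in CD229+CD11c- microglia and 13 for the 11 that did not pass.

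In basal microglia the members' regions were broad. All regions were called on basal replicates 1 and 2 with a log2 cutoff of 1 over input, so a level above input was set by the calling. The authors' log2 enrichment over input in those libraries had a median of 1.81 (range 1.12 to 2.90) over the 43 members' regions within 10 kb. It was 1.63 over the 7740 other regions within 10 kb, which are called other near regions from here on. The median length was 10.7 kb for the members' regions and 7.40 kb for the other near regions. A region was said to hold the TSS where the distance from its centre reached no farther than the region's end: 38 of the 43 members' regions (88.4%) did, against 61.6% of the other near regions. Just inside the 10 kb limit lay the regions of Slc6a2 and Grin2c at 7665 and 8159 bases, and just outside it those of Grin1 and Slc6a4 at 10472 and 10558 bases and a Cacna1e region at 10738 bases. Beyond 10 kb 4 regions still hold the TSS, those of Grin1 (41.1 kb long), Slc6a4 (29.2 kb), Chat (53.0 kb) and, by another region, Cacna1e. In all, 42 of the 54 genes had an own region over the TSS.

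The genes without a row were not all without the mark. Slc17a7, Slc32a1, Grin2d and Chrm2 lie in or overlap regions that the table names for a neighbour, whereas no region overlaps Vip, Gria1 or Scn2a, and none overlaps Grin2a or Syt4, whose own regions lie outside the gene. Slc17a7, the vesicular glutamate transporter VGLUT1, is wholly inside a 35.8 kb region named for Gfy (chr7:45162094-45197909), which held 296, 268 and 292 CPM in CD229+CD11c+, 350, 352 and 353 CPM in CD229+CD11c- and 257, 210.1 and 244 CPM in basal microglia. All CD229+CD11c- libraries and all CD229+CD11c+ libraries lay above the basal ones. That region rose by a log2 fold change of 0.57 ± 0.07 (SE) in CD229+CD11c- and of 0.27 in CD229+CD11c+ against basal microglia (edgeR quasi-likelihood test, Benjamini-Hochberg adjusted p = 1.1e-05 and 0.031). The 118 kb region over Slc32a1, the vesicular transporter of GABA and glycine, rose by 0.27 in CD229+CD11c- microglia (adjusted p = 0.0083, edgeR), and the region over the 5′ end of Grin2d, named for Kdelr1, by 0.80 (adjusted p = 5.3e-06, edgeR). Tags in such regions cannot be assigned to 1 of the genes they cover, and this holds for every domain here that spans a neighbour.

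The first question was whether H3K27me3 at these neuronal genes differed between cuprizone microglia and basal microglia. Levels are tag counts scaled to a common library total with TMM factors (CPM), and a region counts as called at an adjusted p under 0.05 over all 26326 regions (edgeR). In CD229+CD11c- against basal microglia 23 of the 43 members' regions within 10 kb rose and 0 fell, with a median log2 fold change of 0.33 over the 43. Of the other near regions 22.6% rose and 2.62% fell, with a median of 0.08. The members were chosen with earlier results of these data known, and the part of that choice in this gap was not tested. In CD229+CD11c+ against basal microglia 15 of the 43 rose and 0 fell, with a median of 0.24, while 10.2% of the other near regions rose and 1.72% fell, with a median of 0.03. In all, 13 regions rose in both comparisons, 10 passed in CD229+CD11c- only and 2 in CD229+CD11c+ only; the comparisons share the basal libraries. In CD229-CD11c- against basal microglia 0 of the 43 were called by edgeR and 0 by DESeq2, with 6 at an unadjusted p under 0.05 (edgeR) and a median of 0.12, and of the other near regions 0.0% rose and 0.0% fell.

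Regions of genes of other cell types were called in the same comparison. In CD229+CD11c- against basal microglia 4 of 10 regions of the neuronal markers outside the 54 rose, 3 of 5 of astrocyte genes (with 1 lower), 2 of 2 of the oligodendrocyte lineage, 2 of 3 of lymphocytes and 1 of 3 of endothelium, and in CD229+CD11c+ microglia 4, 1, 2, 1 and 0 rose. The summed level of the oligodendrocyte lineage regions, those of Olig1 and Olig2, was 471.4 to 490.7 CPM in CD229+CD11c+, 540.3 to 567.1 CPM in CD229+CD11c- and 376.6 to 408.3 CPM in basal microglia. That of the lymphocyte genes was 406.4 to 419.0 CPM in CD229+CD11c+, 455.8 to 475.5 CPM in CD229+CD11c- and 321.8 to 336.0 CPM in basal microglia, and that of the astrocyte genes 393.1 to 408.7, 417.5 to 433.1 and 327.1 to 341.9 CPM in these groups. For the endothelial genes the groups overlapped, at 145.7 to 159.9 CPM in CD229+CD11c+, 155.4 to 175.5 CPM in CD229+CD11c- and 141.4 to 173.6 CPM in basal microglia. The part of these cell types in the result was not tested.

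**Figure D1:**
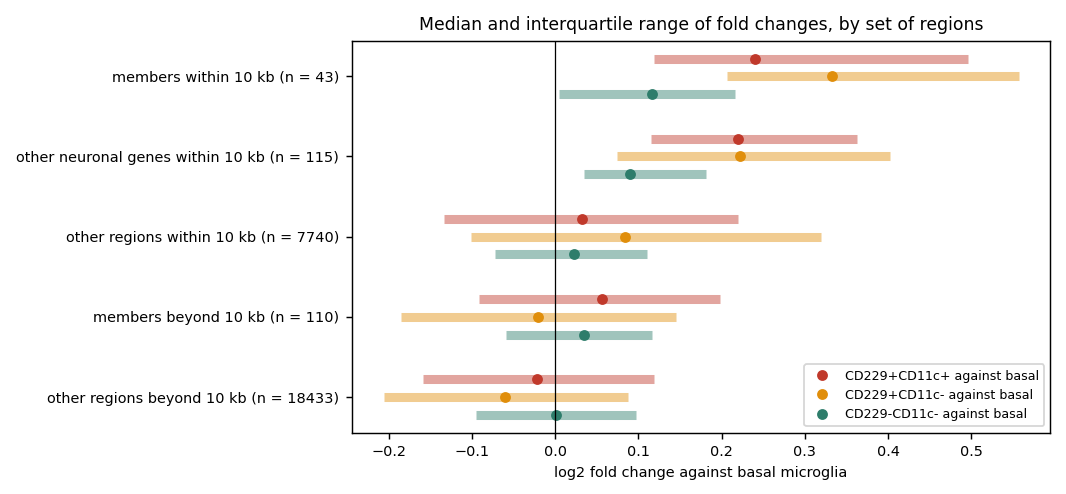
Median (point) and interquartile range (bar) of the log2 fold change against basal microglia (x axis) for 5 sets of regions (y axis), in CD229+CD11c+, CD229+CD11c- and CD229-CD11c- microglia. The members' regions within 10 kb have medians of 0.24, 0.33 and 0.12 in these subsets, and those beyond 10 kb lie near 0.

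The share called also differed with the kind of region. Of the other near regions that hold a TSS, 34.0% rose and 2.22% fell in CD229+CD11c- microglia and 15.9% rose and 1.57% fell in CD229+CD11c+ microglia, against 23 and 14 of 38 members' regions that hold it. Calls also go with depth: in the top depth class of near regions, 1 of 4 equal classes of the other near regions by mean tag count, 15 of 20 members' regions rose in CD229+CD11c- microglia, against 52.7% of the others. In that class, among regions that hold the TSS with more than the others' median enrichment over input, a split chosen after the data were seen, 15 of 20 members' regions rose, against 65.7% of 1367 others, and in CD229+CD11c+ microglia 9 of 20, against 27.5%. No test of these gaps was made.

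**Figure D2:**
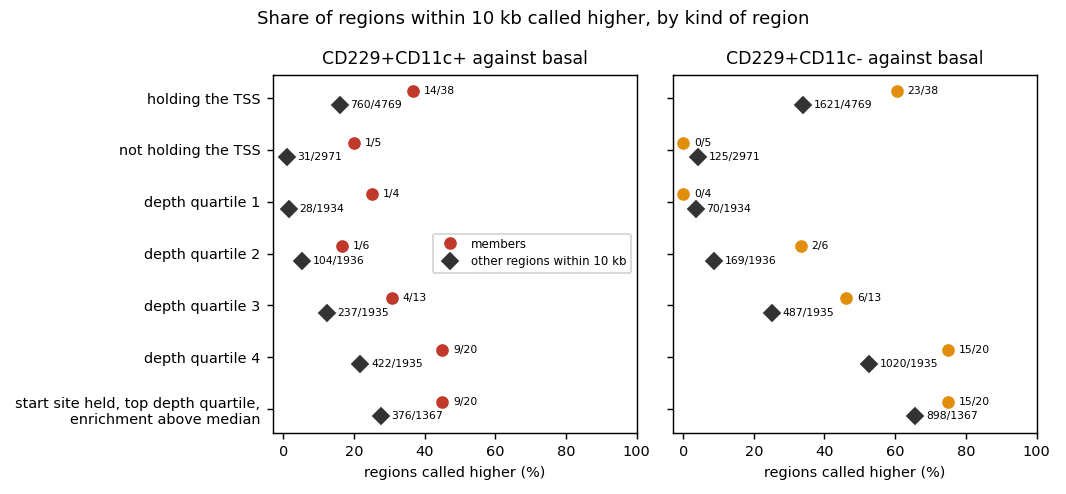
Percent of regions within 10 kb that rose (x axis) among members (circles) and other near regions (diamonds), for regions that hold the TSS or not, for 4 classes of mean tag count (1 lowest) and for a joint subset (y axis), in CD229+CD11c+ and CD229+CD11c- microglia against basal; labels give the number called of the number tested. In CD229+CD11c- microglia the joint subset has 15 of 20 members' regions and 898 of 1367 others called higher.

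The share of all tags that fell in the 43 regions was 0.284% ± 0.012 in CD229+CD11c+, 0.294% ± 0.013 in CD229+CD11c-, 0.258% ± 0.016 in CD229-CD11c- cells and 0.246% ± 0.005 in basal microglia (SD, n = 3 libraries each). The balance of directions was alike with and without the title tag in the CD229+ subsets. Among tagged libraries (2 against 2) 35 of the 43 members' regions were higher in CD229+CD11c- and 39 in CD229+CD11c+ than in basal microglia, with medians of 0.41 and 0.32 on the log2 scale, and between the untagged libraries (1 against 1) 32 and 34 were, with medians of 0.28 and 0.20. Of the other near regions 60.8% and 55.1% were higher among tagged libraries, with medians of 0.09 and 0.04, and 63.4% and 56.3% between untagged ones, with medians of 0.11 and 0.04. For CD229-CD11c- against basal microglia the count was 34 of 43 among tagged and 14 of 43 between untagged libraries, with medians of 0.18 and -0.05, beside 54.2% and 49.6% of the other near regions.

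Counts of calls depended on single libraries. Without basal replicate 4, 14 regions rose in CD229+CD11c- microglia instead of 23, and 15.7% of the other near regions instead of 22.6%. In CD229+CD11c+ microglia 6 rose without basal replicate 3, 4 without basal replicate 4, 3 without CD229+CD11c+ replicate 1 and 7 without CD229+CD11c+ replicate 2, instead of 15. The share of other near regions that rose was then 6.93%, 3.04%, 3.46% and 4.64%, instead of 10.2%. Scaling by total tags lowered the median fold change of the other near regions in CD229+CD11c- microglia to -0.05, against 0.08 with TMM. Of these regions 15.2% then rose and 9.52% fell, against 22.6% and 2.62% with TMM. The members' median then was 0.20, with 14 regions higher and 1, Snap25, lower, beside 23 and 0. In CD229+CD11c+ microglia 9 were higher and 0 lower under that scaling, beside 6.46% and 3.02% of the other near regions. Relative to the other near regions the members' median was higher under both scalings.

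Genes for transmitter synthesis and transport had 4 of 9 regions higher in CD229+CD11c- microglia and 4 of 9 in CD229+CD11c+ microglia, and 0 lower in either. Of these 9 regions 8 hold the TSS, and of the other near regions that hold it 34.0% and 15.9% rose. No test of the counts by role against such shares was made. Gad1 and Gad2 encode the enzymes that make GABA. The Gad2 region (chr2:22609274-22633912, over the promoter) held 142, 140.5 and 126 CPM in CD229+CD11c+, 162, 152 and 150.4 CPM in CD229+CD11c-, 113, 114 and 114 CPM in CD229-CD11c- and 110.5, 103 and 102 CPM in basal microglia. The Gad1 region (chr2:70547581-70575017, over the promoter) held 158, 143 and 130.3 CPM in CD229+CD11c+, 166, 150.4 and 133 CPM in CD229+CD11c-, 135, 113 and 96.5 CPM in CD229-CD11c- and 96.3, 100.5 and 109.6 CPM in basal microglia. For both genes every library of both CD229+ subsets lay above every basal library. Gad2 rose by 0.56 ± 0.07 (log2, SE) in CD229+CD11c- cells and 0.37 ± 0.07 in CD229+CD11c+ microglia (adjusted p = 8.8e-06 and 0.0032, edgeR), and Gad1 by 0.55 ± 0.11 and 0.49 ± 0.11 (adjusted p = 0.0012 and 0.0093, edgeR).

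Slc6a5, the glycine transporter GlyT2 of glycinergic neurons, has a 33.2 kb region that covers its start (chr7:49888269-49921471). It held 170.1, 171 and 142 CPM in CD229+CD11c+, 179, 179 and 157 CPM in CD229+CD11c-, 141, 145 and 112 CPM in CD229-CD11c- and 114, 110.0 and 118 CPM in basal microglia. The lowest library of each subset is the untagged replicate 3, and in both CD229+ subsets it still lies above all basal libraries. The region rose by 0.59 ± 0.09 in CD229+CD11c- cells and 0.50 ± 0.09 in CD229+CD11c+ microglia (adjusted p = 0.00013 and 0.003, edgeR). Slc17a6, the vesicular glutamate transporter VGLUT2, held 57.6, 57.9 and 44.8 CPM in CD229+CD11c+, 52.5, 51.5 and 47.4 CPM in CD229+CD11c-, 48.2, 44.3 and 33.7 CPM in CD229-CD11c- and 34.8, 33.95 and 42.98 CPM in basal microglia. Both CD229+ subsets lay above the basal libraries, and the gene rose by 0.44 in CD229+CD11c- cells and 0.52 in CD229+CD11c+ microglia (adjusted p = 0.026 and 0.019, edgeR). The dopamine and noradrenaline transporters Slc6a3 and Slc6a2 and tyrosine hydroxylase, Th, did not pass in either comparison, with fold changes of 0.21, -0.05 and 0.22 in CD229+CD11c- microglia. Slc17a8, the vesicular glutamate transporter VGLUT3, had -0.14 at its promoter; a 1.25 kb region beside it held 3.44, 2.48 and 3.45 CPM in CD229+CD11c+, 3.28, 2.22 and 4.04 CPM in CD229+CD11c-, 2.19, 2.65 and 1.93 CPM in CD229-CD11c- and 1.601, 2.85 and 3.71 CPM in basal microglia. Its groups overlapped, and neither region passed.

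The serotonin transporter Slc6a4 and choline acetyltransferase, Chat, have their TSS inside regions whose centre lies beyond 10 kb. The Slc6a4 region (chr11:76994562-77023748) held 141, 138 and 160.1 CPM in CD229+CD11c+, 188, 184 and 208 CPM in CD229+CD11c-, 141, 132 and 160.0 CPM in CD229-CD11c- and 148, 142 and 119 CPM in basal microglia. The CD229+CD11c- libraries lay above all others. It rose by 0.50 ± 0.09 in CD229+CD11c- microglia (adjusted p = 0.00043, edgeR), was at 0.10 ± 0.09 in CD229+CD11c+ microglia (adjusted p = 0.56), and differed between these subsets by -0.40 ± 0.09 (CD229+CD11c+ against CD229+CD11c-, adjusted p = 0.036, edgeR). The 53.0 kb Chat region, which also covers Slc18a3, the vesicular acetylcholine transporter in its first intron, rose by 0.35 ± 0.09 in CD229+CD11c- microglia (adjusted p = 0.01, edgeR) and did not pass in CD229+CD11c+ microglia (0.25 ± 0.09, adjusted p = 0.099).

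**Figure D3:**
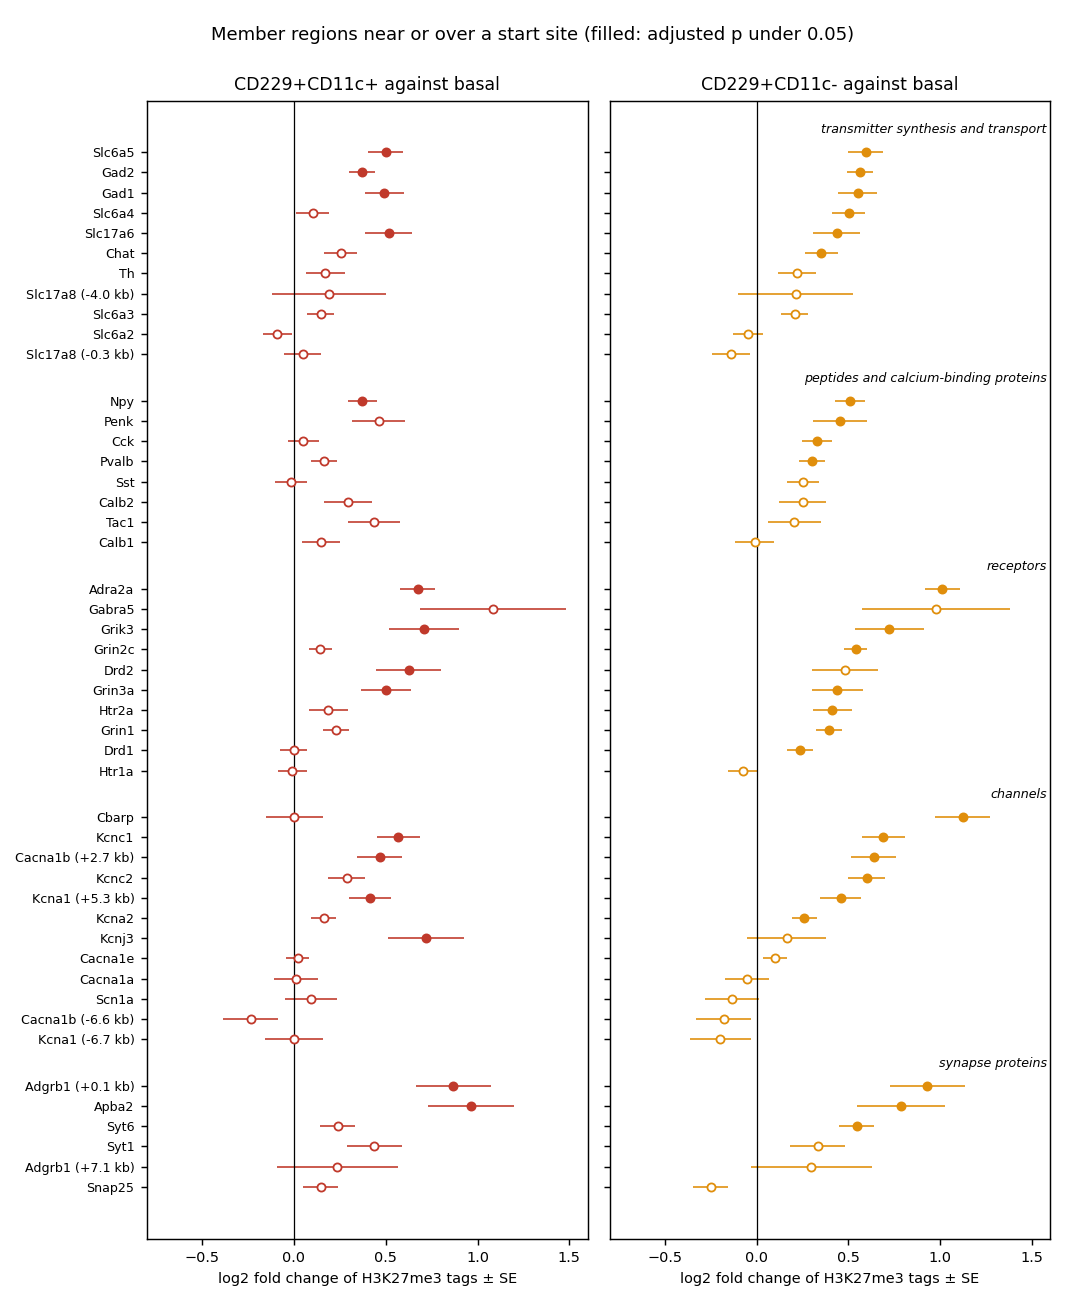
Log2 fold change with its SE (x axis) of the 47 members' regions that lie within 10 kb of a TSS or hold it, by gene and role (y axis), in CD229+CD11c+ and CD229+CD11c- microglia against basal; filled points passed an adjusted p under 0.05 (edgeR) and brackets give the distance where a gene has more than 1 region. In CD229+CD11c- microglia 26 of the 47 passed, all on the higher side, led by Cbarp and Adra2a.

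Neuropeptides and calcium-binding proteins had 4 of 8 regions higher in CD229+CD11c- and 1 of 8 in CD229+CD11c+ microglia, with 0 lower. All 8 hold the TSS, and of the other near regions that hold it 34.0% and 15.9% rose, so the count in CD229+CD11c+ microglia lies near that background. Npy encodes neuropeptide Y, and its region (chr6:49815382-49835192) covers the whole gene. It held 93.0, 93.2 and 86.5 CPM in CD229+CD11c+, 98.49, 103.1 and 97.97 CPM in CD229+CD11c-, 86.5, 88.0 and 72.4 CPM in CD229-CD11c- and 72.6, 70.2 and 67.7 CPM in basal microglia. Both CD229+ subsets lay above the basal libraries, and Npy rose by 0.51 ± 0.08 in CD229+CD11c- cells and 0.37 ± 0.08 in CD229+CD11c+ microglia (adjusted p = 0.00011 and 0.0077, edgeR). Parvalbumin, a calcium buffer encoded by Pvalb, held 210.4, 208 and 204 CPM in CD229+CD11c+, 237, 231 and 217 CPM in CD229+CD11c-, 194, 198 and 172 CPM in CD229-CD11c- and 190.2, 173 and 192 CPM in basal microglia. Proenkephalin, Penk, the precursor of enkephalins, held 44.4, 42.8 and 32.3 CPM in CD229+CD11c+, 43.9, 40.4 and 34.1 CPM in CD229+CD11c-, 35.4, 37.1 and 25.3 CPM in CD229-CD11c- and 27.1, 32.6 and 26.8 CPM in basal microglia. The CD229+CD11c- libraries lay above the basal ones for both genes. Pvalb rose by 0.30, the cholecystokinin gene Cck by 0.33 and Penk by 0.45 in CD229+CD11c- microglia (adjusted p = 0.0051, 0.01 and 0.043, edgeR).

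Cck held 84.7, 83.5 and 95.3 CPM in CD229+CD11c+, 97.7, 108 and 115 CPM in CD229+CD11c- and 91.7, 82.8 and 80.4 CPM in basal microglia, so that CD229+CD11c- libraries stood above the others while the CD229+CD11c+ libraries overlapped the basal ones. In CD229+CD11c+ microglia Cck was at 0.05, Pvalb at 0.16 and Penk at 0.46, and none passed (adjusted p = 0.79, 0.18 and 0.066, edgeR). The somatostatin, tachykinin, calbindin and calretinin genes Sst, Tac1, Calb1 and Calb2 passed in neither comparison, with fold changes of 0.25, 0.21, -0.01 and 0.25 in CD229+CD11c- microglia.

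Receptors had 6 of 9 regions higher in CD229+CD11c- and 4 of 9 in CD229+CD11c+ microglia, with 0 lower. All 9 hold the TSS, as do other near regions of which 34.0% and 15.9% rose. Adra2a, the alpha-2A adrenergic receptor, lies whole in a 13.97 kb region (chr19:54041733-54055706). It held 77.7, 73.6 and 82.9 CPM in CD229+CD11c+, 97.8, 101 and 97.4 CPM in CD229+CD11c-, 53.7, 55.3 and 68.0 CPM in CD229-CD11c- and 55.0, 44.3 and 47.7 CPM in basal microglia. The CD229+CD11c- libraries were highest, the CD229+CD11c+ libraries next, and the CD229-CD11c- and basal libraries overlapped. Adra2a rose by 1.01 ± 0.10 in CD229+CD11c- cells and 0.67 ± 0.10 in CD229+CD11c+ microglia (adjusted p = 4.2e-07 and 0.00024, edgeR).

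Grin2c encodes the NMDA receptor subunit GluN2C, and its region (chr11:115247813-115270356) covers the whole gene. It held 152, 154 and 154 CPM in CD229+CD11c+, 204, 202 and 201 CPM in CD229+CD11c-, 141, 138 and 138 CPM in CD229-CD11c- and 144, 133 and 140.0 CPM in basal microglia. The replicates were tight, and the CD229+CD11c- libraries stood apart from every other library. Grin2c rose by 0.54 ± 0.06 in CD229+CD11c- microglia (adjusted p = 3.7e-06, edgeR) and was at 0.14 ± 0.06 in CD229+CD11c+ microglia (adjusted p = 0.2). Its difference between CD229+CD11c+ and CD229+CD11c- microglia passed (-0.40 ± 0.06, adjusted p = 0.0056, edgeR).

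The obligatory NMDA receptor subunit Grin1, whose region holds the TSS beyond 10 kb, rose by 0.39 ± 0.07 in CD229+CD11c- microglia (adjusted p = 0.00045, edgeR), with 0.23 ± 0.07 in CD229+CD11c+ microglia (adjusted p = 0.056). The kainate receptor subunit Grik3 (chr4:125479034-125502085) held 116, 112 and 78.3 CPM in CD229+CD11c+, 119, 113 and 76.9 CPM in CD229+CD11c-, 97.96, 93.3 and 59.0 CPM in CD229-CD11c- and 56.6, 56.9 and 73.2 CPM in basal microglia. The untagged replicate 3 was lowest in each cuprizone subset by a wide margin, whereas the untagged basal replicate was close to 1 of the tagged ones and below the other. Grik3 rose by 0.72 ± 0.19 and 0.71 ± 0.19 in CD229+CD11c- and CD229+CD11c+ microglia (adjusted p = 0.016 and 0.036, edgeR). 

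Grin3a, another NMDA receptor subunit, held 39.7, 38.6 and 34.3 CPM in CD229+CD11c+, 39.7, 39.4 and 28.6 CPM in CD229+CD11c-, 34.3, 32.4 and 23.5 CPM in CD229-CD11c- and 25.4, 26.2 and 27.8 CPM in basal microglia. It rose by 0.44 in CD229+CD11c- cells and 0.50 in CD229+CD11c+ microglia (adjusted p = 0.037 and 0.034, edgeR). The serotonin receptor Htr2a held 35.9, 38.4 and 35.8 CPM in CD229+CD11c+, 39.7, 41.4 and 47.6 CPM in CD229+CD11c-, 30.2, 30.03 and 36.8 CPM in CD229-CD11c- and 34.2, 29.4 and 32.97 CPM in basal microglia. It rose by 0.41 in CD229+CD11c- microglia (adjusted p = 0.01, edgeR), as did the dopamine receptor Drd1 by 0.24 (adjusted p = 0.032, edgeR), and the dopamine receptor Drd2 in CD229+CD11c+ microglia (0.62, adjusted p = 0.044, edgeR) with 0.48 in CD229+CD11c- microglia (adjusted p = 0.088). Gabra5, a GABA-A receptor subunit, held 9.42, 8.35 and 3.27 CPM in CD229+CD11c+, 8.103, 7.71 and 3.37 CPM in CD229+CD11c-, 7.503, 4.92 and 2.803 CPM in CD229-CD11c- and 2.601, 3.68 and 3.45 CPM in basal microglia. The groups overlapped, and it had fold changes of 1.09 ± 0.40 in CD229+CD11c+ cells and 0.98 ± 0.40 in CD229+CD11c- microglia, and neither passed (adjusted p = 0.12 and 0.13). The serotonin receptor Htr1a was at -0.01 in CD229+CD11c+ cells and -0.08 in CD229+CD11c- microglia.

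Channels and their regulator Cbarp had 6 of 11 regions higher in CD229+CD11c- and 4 of 11 in CD229+CD11c+ microglia, with 0 lower. Of these 11 regions 8 hold the TSS, and of the other near regions that hold it 34.0% and 15.9% rose. Cbarp encodes a protein that binds calcium channel beta subunits and lowers channel activity. Its 3.88 kb region over the start (chr10:80136884-80140765) held 18.6, 16.6 and 19.3 CPM in CD229+CD11c+, 40.1, 36.1 and 42.5 CPM in CD229+CD11c-, 16.9, 17.9 and 21.8 CPM in CD229-CD11c- and 23.8, 14.8 and 16.1 CPM in basal microglia. The CD229+CD11c- libraries stood above all 9 others, which overlapped. Cbarp rose by 1.12 ± 0.15 in CD229+CD11c- microglia (adjusted p = 1.8e-05, edgeR), was at 0.00 ± 0.16 in CD229+CD11c+ microglia, and differed by -1.12 ± 0.15 between CD229+CD11c+ and CD229+CD11c- microglia (adjusted p = 0.0019, edgeR).

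Kcnc1 and Kcnc2 encode the Kv3.1 and Kv3.2 potassium channels of fast-spiking neurons. The Kcnc1 region (chr7:46392989-46410515) held 105, 97.8 and 92.7 CPM in CD229+CD11c+, 121, 104 and 95.2 CPM in CD229+CD11c-, 84.6, 88.2 and 58.5 CPM in CD229-CD11c- and 66.3, 63.6 and 69.0 CPM in basal microglia. It rose by 0.69 ± 0.12 in CD229+CD11c- cells and 0.57 ± 0.12 in CD229+CD11c+ microglia (adjusted p = 0.0004 and 0.0075, edgeR), with no overlap with the basal libraries. The Kcnc2 promoter region held 45.5, 46.04 and 55.7 CPM in CD229+CD11c+, 58.6, 64.3 and 60.4 CPM in CD229+CD11c-, 45.3, 39.1 and 50.9 CPM in CD229-CD11c- and 41.01, 38.3 and 41.6 CPM in basal microglia. It rose by 0.60 ± 0.10 in CD229+CD11c- microglia (adjusted p = 0.00025, edgeR); in CD229+CD11c+ microglia it was at 0.29 ± 0.10 (adjusted p = 0.1). Kcna1, the Kv1.1 channel, rose by 0.46 in CD229+CD11c- cells and 0.41 in CD229+CD11c+ microglia, and Kcna2, the Kv1.2 channel, by 0.26 in CD229+CD11c- microglia, with 0.16 in CD229+CD11c+ microglia, which did not pass. Kcnj3, the GIRK1 channel, held 9.52, 13.3 and 10.3 CPM in CD229+CD11c+, 8.97, 8.18 and 5.16 CPM in CD229+CD11c-, 10.9, 9.84 and 7.73 CPM in CD229-CD11c- and 6.002, 6.35 and 7.59 CPM in basal microglia. It rose by 0.72 ± 0.21 in CD229+CD11c+ microglia (adjusted p = 0.042, edgeR) and was at 0.16 ± 0.22 in CD229+CD11c- microglia; the difference between the subsets was 0.56 ± 0.21 and did not pass (adjusted p = 0.23).

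The calcium channel genes differed from each other. The region over the start of Cacna1b, the N-type channel (chr2:24755291-24765585), held 71.7, 60.6 and 66.4 CPM in CD229+CD11c+, 71.96, 75.6 and 76.2 CPM in CD229+CD11c-, 63.3, 56.5 and 38.6 CPM in CD229-CD11c- and 47.2, 46.5 and 50.1 CPM in basal microglia, with no overlap between either CD229+ subset and basal microglia. It rose by 0.64 ± 0.12 in CD229+CD11c- cells and 0.47 ± 0.12 in CD229+CD11c+ microglia (adjusted p = 0.0011 and 0.029, edgeR), while a region 6595 bases upstream, with 12.9, 12.9 and 12.2 CPM in CD229+CD11c+, 12.5, 13.9 and 13.02 CPM in CD229+CD11c-, 16.99, 15.5 and 13.6 CPM in CD229-CD11c- and 15.9, 11.8 and 16.9 CPM in basal microglia, had -0.18 and -0.23 and overlapping groups. At the start of Cacna1a, the P/Q-type channel, the fold change was -0.05 in CD229+CD11c- cells and 0.01 in CD229+CD11c+ microglia, and at that of Cacna1e, the R-type channel, 0.10 in CD229+CD11c- cells and 0.02 in CD229+CD11c+ microglia, none passing. The 2 own regions of Cacna1g, a T-type channel, lie beyond 10 kb. The region over its start, named for Spata20, rose by 0.65 ± 0.08 in CD229+CD11c- cells and 0.31 ± 0.08 in CD229+CD11c+ microglia (adjusted p = 5.3e-06 and 0.022, edgeR). The sodium channel Scn1a did not pass either (-0.14 in CD229+CD11c- cells and 0.09 in CD229+CD11c+ microglia).

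Synapse proteins had 3 of 6 regions higher in CD229+CD11c- and 2 of 6 in CD229+CD11c+ microglia, with 0 lower. Of these 6 regions 5 hold the TSS, and of the other near regions that hold it 34.0% and 15.9% rose. Syt6, of the synaptotagmin family of vesicle proteins, held 94.1, 98.2 and 98.95 CPM in CD229+CD11c+, 121, 108 and 129.9 CPM in CD229+CD11c-, 83.7, 71.8 and 91.8 CPM in CD229-CD11c- and 92.7, 73.9 and 80.3 CPM in basal microglia. It rose by 0.54 ± 0.09 in CD229+CD11c- microglia (adjusted p = 0.00034, edgeR), with 0.24 ± 0.10 in CD229+CD11c+ microglia (adjusted p = 0.15). Adgrb1, an adhesion receptor of synapses that also binds dying cells (chr15:74511262-74521381), held 56.9, 56.3 and 38.7 CPM in CD229+CD11c+, 65.8, 51.8 and 40.3 CPM in CD229+CD11c-, 45.3, 42.9 and 25.2 CPM in CD229-CD11c- and 27.7, 24.6 and 30.7 CPM in basal microglia. The untagged replicate 3 was again lowest in each cuprizone subset, and in CD229-CD11c- microglia it lay among the basal libraries. Adgrb1 rose by 0.93 ± 0.20 and 0.87 ± 0.20 in CD229+CD11c- and CD229+CD11c+ microglia (adjusted p = 0.0047 and 0.019, edgeR).

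The promoter region of Apba2, an adaptor of the vesicle fusion machinery, held 37.6, 23.2 and 23.2 CPM in CD229+CD11c+, 31.4, 25.01 and 17.5 CPM in CD229+CD11c-, 24.4, 20.4 and 13.7 CPM in CD229-CD11c- and 11.8, 13.5 and 17.5 CPM in basal microglia. It rose by 0.79 ± 0.24 and 0.96 ± 0.24 in CD229+CD11c- and CD229+CD11c+ microglia (adjusted p = 0.035 and 0.021, edgeR), and in CD229+CD11c- microglia its lowest library met the highest basal one. Among the 43 regions within 10 kb, that of Snap25, a core protein of vesicle fusion, had the lowest fold change in CD229+CD11c- microglia. Its region held 40.8, 41.6 and 39.5 CPM in CD229+CD11c+, 28.3, 31.7 and 32.9 CPM in CD229+CD11c- and 34.5, 39.6 and 36.2 CPM in basal microglia, a fold change of -0.25 ± 0.10 that did not pass in CD229+CD11c- microglia (adjusted p = 0.098, edgeR) and 0.14 ± 0.09 in CD229+CD11c+ microglia. Under total-count scaling Snap25 did pass in CD229+CD11c- microglia (-0.39, adjusted p = 0.01). The calcium sensor Syt1 passed in neither comparison (0.33 in CD229+CD11c- cells and 0.44 in CD229+CD11c+ microglia).

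**Figure D4:**
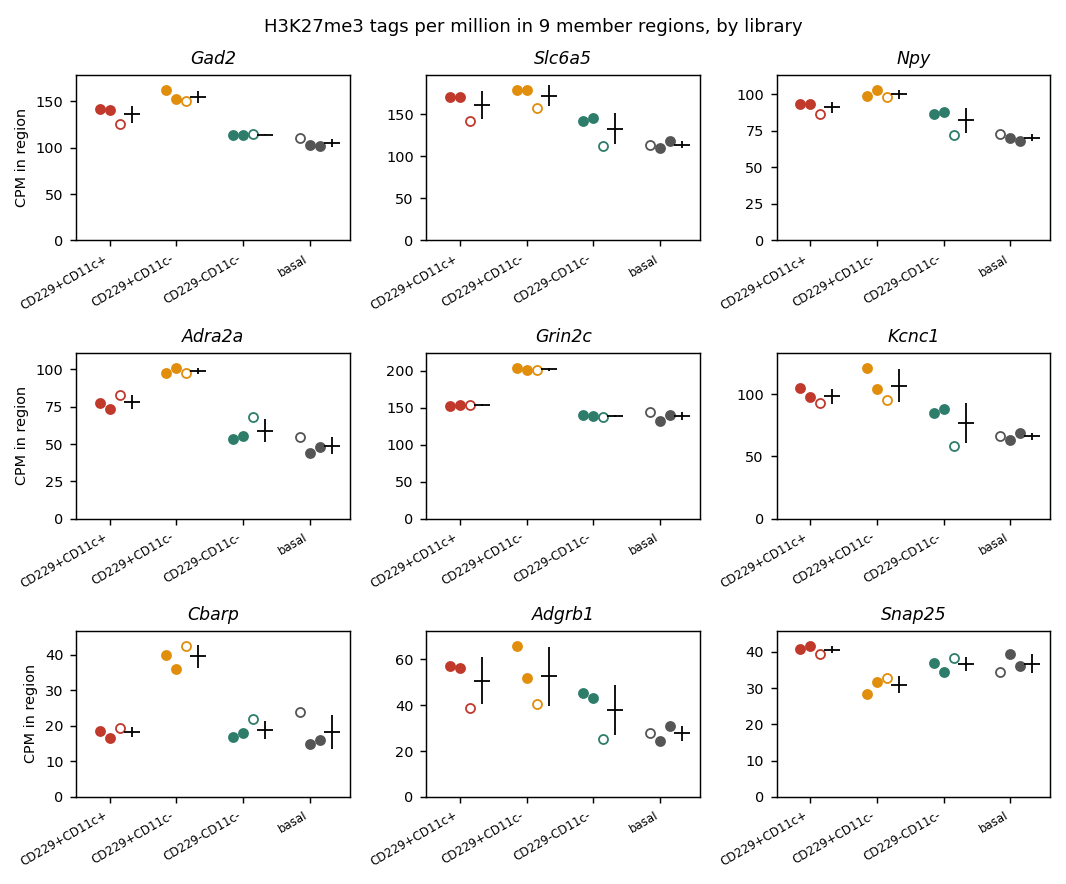
H3K27me3 level (CPM, y axis from 0) in the TSS region of 9 members for each library of the 4 groups (x axis); filled points are libraries with PE150 in the title, open points those without, and the bar is the mean with its SD (n = 3). The CD229+CD11c- libraries are above all others for Cbarp, Grin2c, Gad2, Npy and Adra2a. Libraries of both CD229+ subsets are above the basal ones for Gad2, Slc6a5, Npy, Adra2a, Grin2c, Kcnc1 and Adgrb1. For Cbarp the CD229+CD11c+ libraries overlap the basal ones. Snap25 lies below basal microglia in CD229+CD11c- and overlaps it in CD229+CD11c+ microglia.

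Some of these calls rest on single libraries. Of the 23 calls in CD229+CD11c- microglia, 13 held with each of the 6 libraries left out in turn: Kcnc2, Cbarp, Grin2c, Pvalb, Adgrb1, Adra2a, Cacna1b, Gad1, Gad2, Syt6, Npy, Kcnc1 and Slc6a5. The other 10 did not, with highest adjusted p of 0.158 for Drd1, 0.0815 for Htr2a, 0.0829 for Kcna2, 0.19 for Penk, 0.0718 for Grik3, 0.178 for Grin3a, 0.0656 for Kcna1, 0.146 for Slc17a6, 0.2 for Apba2 and 0.0577 for Cck (edgeR). Leaving out basal replicate 4 ended 9 of the calls, basal replicate 3 and CD229+CD11c- replicate 1 ended 7 each, CD229+CD11c- replicate 2 ended 6, and basal replicate 5 and CD229+CD11c- replicate 3 ended 3 each. In CD229+CD11c+ microglia 3 of 15 calls held throughout: Adra2a, Gad2 and Slc6a5. The other 12 had highest adjusted p of 0.0526 for Npy, 0.0582 for Kcnc1, 0.0752 for Gad1, 0.0972 for Adgrb1, 0.131 for Slc17a6, 0.147 for Grik3, 0.15 for Apba2, 0.151 for Cacna1b, 0.151 for Kcna1, 0.153 for Grin3a, 0.196 for Drd2 and 0.207 for Kcnj3 (edgeR). Of these calls CD229+CD11c+ replicate 1 ended 12, basal replicate 4 ended 11, basal replicate 3 ended 9, CD229+CD11c+ replicate 2 ended 8, basal replicate 5 ended 4 and CD229+CD11c+ replicate 3 ended 2. All fold changes of these calls stayed above 0 in each such fit.

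The scaling and the test also ended calls among the genes given with their library values. Of these calls only that of Pvalb had held with each library left out in turn. Total-count scaling ended those of Slc17a6, Pvalb, Cck, Penk, Htr2a, Grin3a and Apba2 in CD229+CD11c- microglia (adjusted p = 0.089, 0.074, 0.11, 0.12, 0.07, 0.11 and 0.063, edgeR) and those of Grik3, Grin3a, Cacna1b and Kcnj3 in CD229+CD11c+ microglia (0.067, 0.062, 0.054 and 0.065). Loess offsets were fitted on the authors' basal enrichment over input and on basal tags per kb, so they take out change that goes with these. In CD229+CD11c- microglia they ended the calls of Slc17a6 (0.29, adjusted p = 0.18), Cck (0.24, adjusted p = 0.052) and Grin3a (0.07, adjusted p = 0.75, edgeR). In CD229+CD11c+ microglia they ended those of Grin3a (0.23, adjusted p = 0.24), Cacna1b (0.42, adjusted p = 0.055) and Kcnj3 (0.59, adjusted p = 0.074, edgeR). With them Gad1 was at 0.29 in CD229+CD11c- cells and 0.32 in CD229+CD11c+ microglia and Grin2c at 0.31 in CD229+CD11c- microglia, which still passed (adjusted p = 0.036, 0.031 and 0.004, edgeR). DESeq2 did not call Apba2 in CD229+CD11c- microglia (adjusted p = 0.078) or Grik3 in CD229+CD11c+ microglia (adjusted p = 0.067).

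The second question was how the cuprizone subsets differed from each other. In CD229+CD11c+ against CD229+CD11c- microglia 0 of the 43 regions rose and 2 fell, Cbarp and Grin2c, while 0.0129% of the other near regions rose and 2.0% fell. Without CD229+CD11c+ replicate 1, or without replicate 2 of that group, 1 region was called. DESeq2 called 6, beside 0.0258% of the other near regions higher and 6.03% lower, and the replicate block 11 (2 higher, 9 lower), beside 1.3% higher and 15.3% lower. In CD229+CD11c- against CD229-CD11c- microglia 15 rose and 0 fell, against 16.5% and 1.46% of the other near regions; they include Adra2a (0.74 ± 0.09), Cbarp (1.06 ± 0.15), Grin2c (0.54 ± 0.06), Gad2 (0.45 ± 0.07) and Cck (0.39 ± 0.08). Somatostatin, Sst, is among the 15 at 0.32 ± 0.09 (adjusted p = 0.024, edgeR), and the others are Kcnc2, Htr2a, Pvalb, Cacna1b, Gad1, Syt6, Npy, Kcnc1 and Slc6a5 at 0.28 to 0.54. Without CD229+CD11c- replicate 2 the count was 9. With the replicate number as a block, which these subsets share, 24 of the 43 rose, beside 27.2% of the other near regions that rose and 4.12% that fell.

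In CD229+CD11c+ against CD229-CD11c- microglia 0 of the 43 were called by edgeR and 2 by DESeq2, and 13 had an unadjusted p under 0.05 (edgeR), with a median log2 fold change of 0.19; of the other near regions 0.93% rose and 0.388% fell. With the replicate block 16 of the 43 rose, beside 13.7% of the other near regions that rose and 2.27% that fell, and without CD229-CD11c- replicate 1 or without replicate 3 of that group 1 was. The CD229-CD11c- libraries were the least alike of the groups: replicate 3 had correlations of 0.965 and 0.966 across regions with its group, against 0.977 to 0.987 for other pairs within groups.

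Away from the starts the pattern was another. Of the 110 members' regions beyond 10 kb, 4 rose and 4 fell in CD229+CD11c- against basal microglia, with a median of -0.02, and of the 18433 other regions beyond 10 kb 3.98% rose and 3.83% fell. In CD229+CD11c+ microglia 4 rose and 1 fell, with a median of 0.06, against 1.78% and 1.37% of the others. The shares in CD229+CD11c- microglia, 3.64% each way, lie near the background, while the 3.64% that rose in CD229+CD11c+ microglia lies above it. No test of that gap was made. Of the 4 that rose in CD229+CD11c- microglia, 3 are the regions over the TSS of Grin1, Slc6a4 and Chat. The remaining one lies in intron 17 of Adgrb1, 47.6 kb from the start, and rose by 1.11 in CD229+CD11c- cells and 1.09 in CD229+CD11c+ microglia (adjusted p = 0.0016 and 0.0062, edgeR).

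**Figure D5:**
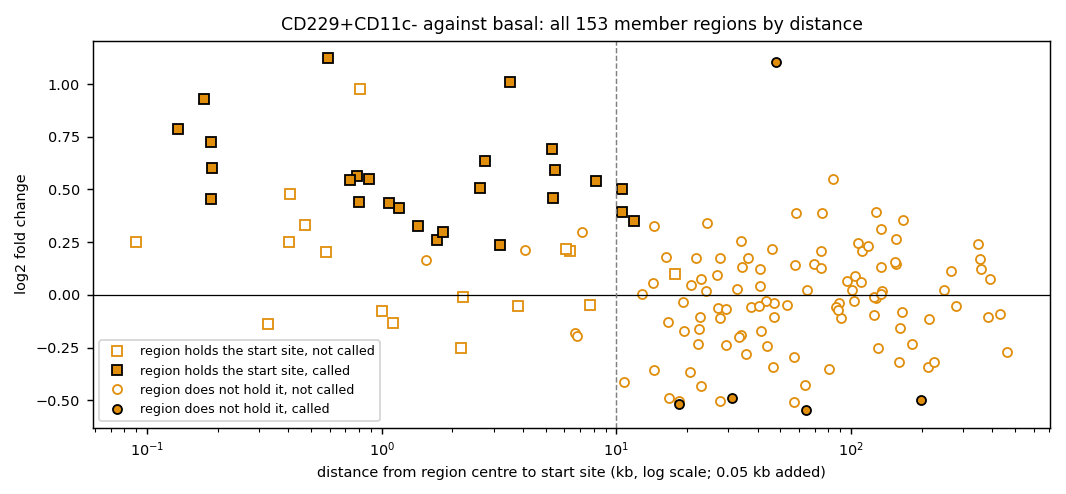
Log2 fold change in CD229+CD11c- against basal microglia (y axis) of all 153 members' regions by the distance of the region's centre from the TSS (x axis, kb, log scale); squares hold the TSS, circles do not, filled points were called and the dashed line marks 10 kb. The called regions that hold the TSS are all above 0, and 4 regions beyond 10 kb that do not hold it are called below 0.

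Regions of 1 gene could be called in different directions. In Slc6a4 the region over the start rose in CD229+CD11c- microglia while the next region, over intron 13 (chr11:77025471-77033814), fell by 0.49 in CD229+CD11c- and by 0.52 in CD229+CD11c+ microglia (adjusted p = 0.022 and 0.031, edgeR). In Cacna1a, whose region at the start did not pass, the regions in intron 1 (chr8:84426997-84440475) and, farther on, in intron 2 (chr8:84476975-84482677) fell by 0.52 and 0.55 in CD229+CD11c- microglia (adjusted p = 0.0017 and 0.045, edgeR). The region in intron 1 held 24.1 CPM on average in CD229+CD11c- and 34.5 CPM in basal microglia. Another 3 of the 4 regions inside Cacna1a that the table names for Ier2 fell in CD229+CD11c- microglia, by 0.41 to 0.52. A region named for Ttc21b that overlaps Scn1a fell by 0.73 in CD229+CD11c- microglia (adjusted p = 0.032, edgeR). A region in intron 7 of Cacna1e fell by 0.50 in CD229+CD11c- microglia (adjusted p = 0.02, edgeR), whereas 2 regions upstream of Cacna1e rose in CD229+CD11c+ microglia, by 0.27 and 0.40, and 1 in intron 10 of Cacna1b by 0.27. Whether the 2 regions of a gene differ from each other was not tested.

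Other genes of the same kind were taken from a list of 159 transmitter, receptor, channel and synapse genes that are not among the 54; 103 of them had 115 regions within 10 kb. In CD229+CD11c- against basal microglia 36 of the 115 rose and 2 fell, with a median of 0.22, and in CD229+CD11c+ microglia 21 rose and 0 fell, also with a median of 0.22. Examples are the adrenergic receptor Adra2c, at 1.43 in CD229+CD11c- cells and 1.36 in CD229+CD11c+ microglia, and, in the same order of subsets, the muscarinic receptor Chrm3 at 0.74 and 0.66, the synaptic adhesion protein Nlgn2 at 1.74 and 0.88, and a region of the calcium channel Cacna1c at 0.52 and 0.33, all called in both. The 2 that fell were Tph2, the enzyme of serotonin synthesis in neurons (-0.48), and the serotonin receptor Htr4 (-0.22). The shares of the 115 regions called higher, 31.3% in CD229+CD11c- cells and 18.3% in CD229+CD11c+ microglia, are below those of the 43 members' regions. Both lists were chosen with earlier results of these data known, and the part of this in the gap was not tested. Of the 115 regions 87.8% hold the TSS, and of the other near regions that hold it 34.0% and 15.9% rose, so that these shares lie near that background.

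Levels per kb of region were ordered for the 47 members' regions within 10 kb of a TSS or over it. The densest of these in basal microglia were Grin2c at 6.16 ± 0.25 CPM per kb, Syt6 at 5.36 ± 0.62, Grin1 at 5.05 ± 0.24 and Kcnc2 at 4.85 ± 0.21 (SD, n = 3 libraries each). Below them Cbarp, Slc6a4 and Cacna1b lay between 4.66 and 4.70 CPM per kb and did not differ beyond their spread. The median over the 43 regions was 4.59 CPM per kb in CD229+CD11c+, 4.46 in CD229+CD11c-, 3.96 in CD229-CD11c- cells and 3.66 in basal microglia. In CD229+CD11c- microglia the order changed at the top: Cbarp reached 10.2 CPM per kb, ahead of Grin2c at 8.96 and Syt6 at 7.81.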

How the data were processed

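The tables hold H3K27me3 tag counts per region, not normalised, for 12 libraries, as the authors deposited them in mm10. Per the file headers, regions were called by HOMER on basal replicates 1 and 2 against input; per the submitters' processing notes, fastp 0.20.0, Bowtie2 2.3.4.1, STAR 2.7.0f and DESeq2 were among the tools. The deposited basal table also gives log2 enrichment over input, and the deposited distance to the TSS and region size are in bases (the other unit). The 12 columns of the authors' normalised table were not used. Distances run from the region's centre. Counts were tested with edgeR 4.0.16 (R 4.3.3): filterByExpr, which removed 0 regions, TMM, robust quasi-likelihood F-tests with the 4 groups in 1 model, and Benjamini-Hochberg adjustment over 26326 regions. The code was tested on simulated data. Members and gene lists were chosen with earlier results of these data known. Named members are, per role, those with the 4 smallest p in CD229+CD11c- and the 2 smallest in CD229+CD11c+ against basal microglia, with the largest rise and fall of each comparison; every called member is also named. Same-numbered libraries deviated together between CD229-CD11c- and CD229+CD11c- (correlations 0.283, 0.128 and 0.457) and between CD229-CD11c- and CD229+CD11c+ microglia (0.237, 0.134 and 0.417), so the numbers were taken to pair these. Replicates 1 and 2 also correlated across numbers (0.145 and 0.248; 0.125 and 0.184), and replicate 3 is the untagged one, so number and tag cannot be told apart. Counts of 151 to 222 per library at the median region set the precision. Sequences are from RefSeq, GRCm38.p6.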

Additional observations from a re-analysis of the deposited data

Results flagged for a closer look

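Between the CD229+ subsets 3 members' regions over a TSS differed by the test of the difference itself (CD229+CD11c+ against CD229+CD11c-, edgeR). Cbarp differed by -1.121, Grin2c by -0.3983 and Slc6a4 by -0.3994 on the log2 scale. In all 3 the CD229+CD11c- libraries were above every CD229+CD11c+ library, and in the comparison with basal microglia each passed in CD229+CD11c- and not in CD229+CD11c+ microglia. That separation is close to given by the test that picked them, on the same libraries, and adds no support. It was also seen in 17 of the 47 members' regions near or over a TSS and in 1646 of the 7740 other near regions. The regions over Grin2d, named for Kdelr1, and over the start of Cacna1g, named for Spata20, differed likewise, by -0.42 and -0.34 (adjusted p = 0.036 and 0.039, edgeR); these were picked out after their values were seen.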

How the results depend on the processing

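Counts are of the 43 regions called in either direction, each as the count under the alternative for the count reported above. Total-count scaling gave 15 for 23 in CD229+CD11c- against basal, 9 for 15 in CD229+CD11c+ against basal and 9 for 15 in CD229+CD11c- against CD229-CD11c- microglia. Loess offsets gave 9 in the last. The other near regions moved too: total-count scaling called 15.2%, 6.46% and 10.3% of them higher in these 3 comparisons and loess offsets 9.83% in the last. Lower were 9.52%, 3.02% and 4.42% under total-count scaling and 1.32% in the last with loess offsets. With the title tag as a covariate, CD229+CD11c- against basal microglia had 30 for 23, of which 29 were higher and 1 lower. Of the other near regions 30.3% then rose and 5.92% fell. The title tag as a covariate gave 24 for 15 in CD229+CD11c+ against basal, 1 for 0 in CD229-CD11c- against basal, 11 for 2 in CD229+CD11c+ against CD229+CD11c-, 23 for 15 in CD229+CD11c- against CD229-CD11c- and 15 for 0 in CD229+CD11c+ against CD229-CD11c- microglia; tagged libraries alone gave 24, 9, 8, 18 and 9 in these comparisons, in the same order. With the covariate 21.6%, 0.323%, 0.93%, 26.4% and 11.1% of the other near regions rose and 6.5%, 0.0129%, 14.1%, 3.77% and 2.11% fell, and with tagged libraries alone 21.3%, 5.44%, 0.53%, 22.2% and 6.46% rose and 5.94%, 0.607%, 10.3%, 2.38% and 1.14% fell. In CD229+CD11c+ against CD229+CD11c- a 5 kb limit gave 1 and DESeq2 6; in CD229+CD11c+ against CD229-CD11c- DESeq2 gave 2. With the replicate block over the cuprizone libraries, the counts were 11 for 2 in CD229+CD11c+ against CD229+CD11c-, 24 for 15 in CD229+CD11c- against CD229-CD11c- and 16 for 0 in CD229+CD11c+ against CD229-CD11c- microglia. In CD229+CD11c+ against CD229+CD11c- the same-numbered correlations were 0.2, 0.083 and 0.331, so 1 of 3 was under 0.1. No paired analysis was possible for comparisons with basal microglia because these share only replicate number 3. Leaving out 1 library gave 14 to 24, 3 to 15, 0 to 0, 1 to 2, 9 to 16 and 0 to 1, in the order CD229+CD11c-, CD229+CD11c+ and CD229-CD11c- against basal, CD229+CD11c+ against CD229+CD11c-, CD229+CD11c- against CD229-CD11c-, and CD229+CD11c+ against CD229-CD11c-. Over the 50 fold changes of named members, 497 of 600 alternatives kept direction and side of the threshold, 82 lost it, 21 gained it and 0 changed sign while called. Counting regions that hold the TSS beyond 10 kb, chosen after the data were seen, gave 26 for 23 in CD229+CD11c- against basal microglia.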
